A study of Mus musculus with 6 samples.

Results

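Elastin and the proteins of the microfibril were followed at the RNA level, on Affymetrix arrays, in 6 lung metastases of MMTV-Myc mice, in which the mouse mammary tumour virus promoter drives the Myc oncogene in mammary epithelium. The set was named as Eln, Fbn1, Fbln1, Fbln2, Fbln5, Mfap2, Mfap4, Mfap5, Emilin1 and Ltbp1, 10 genes in all. Of these, 9 had at least 1 probe set that the platform annotation gives to a single gene, out of 12393 such genes on the array. They were covered by 13 probe sets of 22690, and the brightest probe set of a gene, by its mean over the 6 arrays, is the one described unless stated otherwise. No probe set carried the symbol Fbn1 alone, so fibrillin-1 was not analysed here. The set was chosen by function, but selected on the measured difference of Eln between the genotypes, which was already known. That difference, and those of the other members, are therefore given as descriptions with no test.

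All mice were of the FVB strain and carried the Myc transgene. The 3 metastases called KO came from mice labelled E2F2 knockout, and the 3 called Het came from mice labelled heterozygous for E2F3. Metastases of mice with intact E2F2 and E2F3 were not used here, and neither age nor sex is given in the labels. All 3 Het titles carry 1 common number, while the KO titles carry 3 different ones, so the Het metastases may come from 1 mouse and genotype cannot then be told apart from mouse. Replicate numbers only name the arrays. The transgene acts in the mammary epithelium, but the RNA was of whole metastases, which also hold cells of the host lung.

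An elastic fibre has a core of crosslinked elastin, laid down on a scaffold of fibrillin microfibrils. Fibulins, microfibril-associated proteins and EMILINs join or stabilise the parts, lysyl oxidases crosslink the elastin, and latent TGF-beta binding proteins anchor the growth factor to the scaffold. In the lung these fibres give vessels, airways and alveolar walls their recoil, and smooth muscle cells and fibroblasts are known to be their main sources.

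The arrays had been scaled by the authors to 1 common level, with median signals from 137.6 to 164.8. Het replicate 1 had the highest 3' to 5' signal ratio for the transferrin receptor, 11.8 against 3.25 to 5.15 on the other arrays, a measure of RNA quality. E2f3 had signals between 91.4 and 137.9 in KO and between 73.0 and 144.2 in Het, and no probe set carried the symbol E2f2, so the genotype labels were not checked. Krt8 and Krt18, keratins listed here for the epithelial tumour cells, were bright on all 6 arrays, with signals from 8895 to 15158. Whether epithelium of the host lung adds to their signal was not tested. Surfactant and other alveolar genes were bright as well, most of all in KO replicate 1. The summed signal of the 9 alveolar genes measured, of 10 listed, was 62389, 36469 and 11860 in KO replicates 1, 2 and 3, and 29787, 19425 and 21666 in Het replicates 1, 2 and 3. All 9 had signals above 0 on every array.

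Eln was lower in KO metastases on both of its probe sets. The main probe set, 1420855_at, had signals of 451.9, 495.1 and 302.0 in KO replicates 1, 2 and 3, and of 1086, 837.9 and 731.9 in Het replicates 1, 2 and 3. All 3 KO arrays lay below all 3 Het arrays. The group means were 416.3 ± 101.3 in KO and 885.3 ± 181.8 in Het (SD, n = 3 arrays each). On the log2(signal + 16) scale, which understates the change of dim genes, KO minus Het was -1.07 (SE 0.34), a level 2.10-fold higher in Het. The dimmer probe set, 1420854_at, ran from 13.1 to 25.5 in KO and from 30.1 to 125.9 in Het, also with no overlap, and its difference was -1.29 (SE 0.36). Its mean was below the minimum used for the fit over all probe sets, and whether so dim a signal is above background is not known here. Among Het arrays, the main probe set was highest in replicate 1, the array with the raised 3' to 5' ratio, and the difference without that array was -0.92. It was -0.86 without KO replicate 3, the array with the lowest Eln signal.

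Across the members, no overlap between the groups was seen for 3 of 9 genes, namely Eln, lower in KO, and Fbln1 and Fbln2, higher in KO. Over all 13575 probe sets kept, the groups stood apart for 16.7%, with 8.91% lower and 7.82% higher in KO. The set was selected on the difference of Eln, so the place of Eln among the 3 was known beforehand. Of the members other than Eln, 2 had no overlap, both higher in KO. KO minus Het was positive for 7 of the 9 members, with a median of 0.37, against 47.6% of probe sets and a median of -0.02 over all probe sets kept. All 9 main probe sets passed the filter on low values, and the 4 other member probe sets did not. In the limma fit, 0 of 13575 probe sets, or 0%, had a Benjamini-Hochberg adjusted p under 0.05, so no member was called. An unadjusted p under 0.05 was found for 301 probe sets, and for 1394 when each array was taken as a sample, again with 0 called after adjustment. Of the 13575 tested, the 301 are a smaller share than the 0.05 that evenly spread p-values would give, and the 1394 a larger one.

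**Figure D1:**
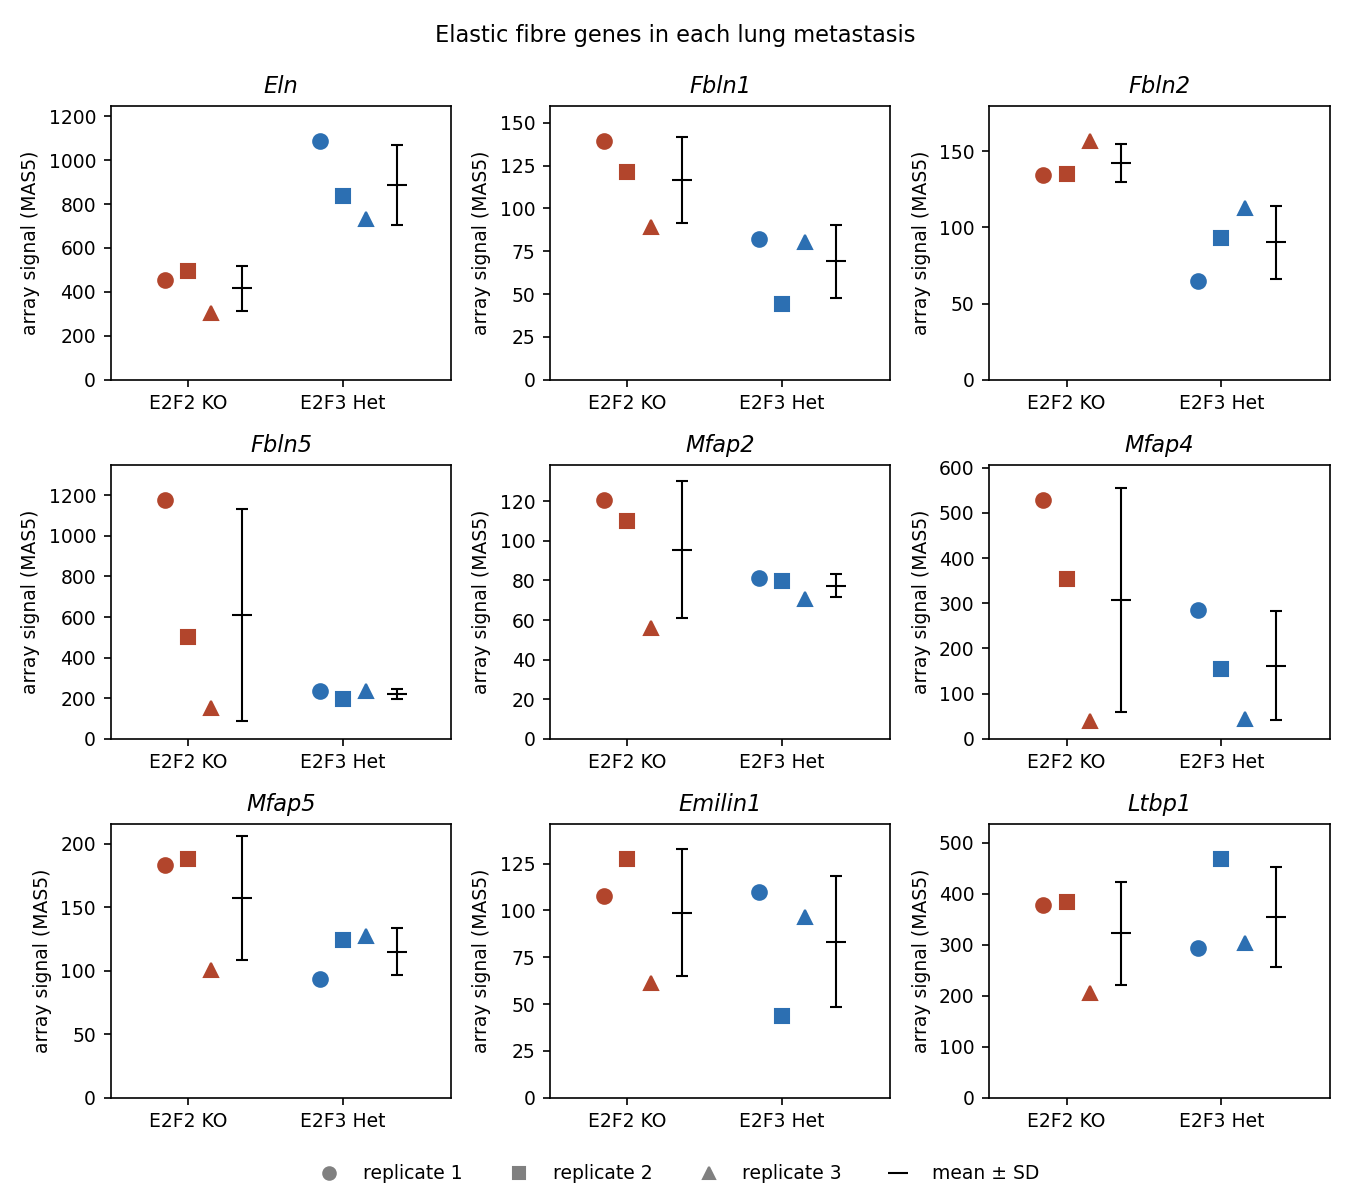
MAS5 array signal (vertical axis, linear, from 0) of the 9 measured elastic fibre genes in each KO and Het metastasis, with the group mean and SD beside the points (n = 3 arrays each). Eln lies between 302.0 and 495.1 in KO and between 731.9 and 1086 in Het, while Fbln5 and Mfap4 spread widely within the KO group.

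The main probe sets of Fbln1, Fbln2 and Fbln5 went the other way from Eln in direction. Fibulin-1, which binds elastin and basement membrane proteins, had Fbln1 signals of 139.2, 121.1 and 89.4 in KO replicates 1, 2 and 3, and of 82.3, 44.4 and 80.5 in Het replicates 1, 2 and 3. All KO arrays were above all Het arrays, although KO replicate 3 was only slightly above Het replicate 1. The means were 116.6 ± 25.2 in KO and 69.1 ± 21.4 in Het (SD, n = 3 arrays each), and KO minus Het was 0.66 on the log2 scale (SE 0.36). The second Fbln1 probe set did not show this. Its means were 51.9 ± 18.9 and 52.6 ± 14.1 (SD, n = 3 arrays each), and its difference was -0.04 (SE 0.47). The mean of both probe sets differed by 0.31. Without Het replicate 2, the difference of the main Fbln1 probe set was 0.43.

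Fbln2 encodes fibulin-2, a binding partner of fibronectin, elastin and fibrillin. It had signals of 134.7, 135.2 and 156.6 in KO replicates 1, 2 and 3, against 65.1, 92.8 and 112.7 in Het replicates 1, 2 and 3. The 3 KO arrays lay close together and above the Het arrays, and KO replicate 3 was the highest of all 6. The means were 142.2 ± 12.5 in KO and 90.2 ± 23.9 in Het (SD, n = 3 arrays each), and the log2 difference was 0.60 (SE 0.29). Fbln2 was the 1 member of 9 that was highest in KO replicate 3.

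Fbln5 encodes fibulin-5, which tethers elastin to microfibrils and to cell surface integrins and is needed for elastic fibre assembly. Its signals were 1176, 501.9 and 151.7 in KO replicates 1, 2 and 3, and 236.8, 194.1 and 234.0 in Het replicates 1, 2 and 3. KO replicates 1 and 2 were above all Het arrays, and KO replicate 3 was below all of them. The Het arrays differed little, with a log2 SD of 0.15, against 1.42 in KO. The log2 difference of 0.99 (SE 1.02) was smaller than its error. Leaving out KO replicate 1 gave 0.32, and leaving out KO replicate 3 gave 1.73. The 3 fibulin members thus had different patterns, with Fbln2 even across KO metastases and Fbln5 spanning 7.75-fold over the 6 arrays.

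The upstream sequences of Fbln1, Fbln2 and Fbln5 are shown because these 3 genes of 1 family differed in their pattern across the KO arrays. Whether the sequences have a part in these patterns was not tested. RefSeq start sites on GRCm38.p6 were listed for 7 of the 10 genes, and Eln, Mfap4 and Mfap5 had no entry. Each run gives the 250 bases before a start site, 5′ to 3′ on the strand of the gene. It is chr15:85205699-85205948 on the plus strand for the first Fbln1 start, chr6:91212514-91212763 on the plus strand for Fbln2, and chr12:101819120-101819369 on the minus strand for the first Fbln5 start. Capitals mark the GC box GGGCGG, the element read by Sp1, and the E-box CACGTG, known to be bound by Myc with Max, on either strand.
Fbln1: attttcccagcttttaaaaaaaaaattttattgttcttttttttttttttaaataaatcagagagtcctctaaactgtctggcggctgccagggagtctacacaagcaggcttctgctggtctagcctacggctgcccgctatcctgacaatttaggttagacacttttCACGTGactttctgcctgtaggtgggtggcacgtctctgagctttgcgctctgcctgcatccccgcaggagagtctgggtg
Fbln2: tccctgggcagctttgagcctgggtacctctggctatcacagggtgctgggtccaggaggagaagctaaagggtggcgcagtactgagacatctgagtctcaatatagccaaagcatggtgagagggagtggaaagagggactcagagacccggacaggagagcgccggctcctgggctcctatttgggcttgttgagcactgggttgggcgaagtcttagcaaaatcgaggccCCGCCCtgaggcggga
Fbln5: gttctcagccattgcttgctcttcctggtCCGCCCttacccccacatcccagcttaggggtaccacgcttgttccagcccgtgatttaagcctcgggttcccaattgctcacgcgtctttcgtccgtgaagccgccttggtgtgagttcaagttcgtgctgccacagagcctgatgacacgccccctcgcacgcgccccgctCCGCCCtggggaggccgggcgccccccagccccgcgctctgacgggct
The first Fbln1 window held 1 E-box and no GC box, the Fbln2 window held 1 GC box, and the first Fbln5 window held 2. The second Fbln1 window overlaps the first and held the same E-box and 1 GC box, and the second Fbln5 window held no GC box, so the counts differed between starts of 1 gene. Over all 32851 windows of 250 bases in that table, 32.7% held a GC box and 6.02% held this E-box. No window of a listed gene held the TATA box TATAAA, which 12.4% of all windows held, or either of the E2F letters TTTCCCGC and TTTGGCGC, held by 1.3%. CpG pairs numbered 7 and 14 in the first and second Fbln1 windows, 8 in Fbln2, and 21 and 6 in the first and second Fbln5 windows, against a median of 6 over all windows.

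Microfibril-associated genes varied more within a group than between the groups. Mfap4 encodes a fibrinogen-like protein of microfibrils that is abundant in lung and vessel walls. It had signals of 527.9, 353.5 and 39.5 in KO replicates 1, 2 and 3, and of 284.7, 154.7 and 43.9 in Het replicates 1, 2 and 3. Both groups held an array near 40 and arrays several-fold above it, and the range over the 6 arrays was 13.4-fold. KO replicates 1 and 2 were above all Het arrays, and KO replicate 3 was below all of them. The log2 difference was 0.62 (SE 1.26), and it turned to -0.02 without KO replicate 1 and also without Het replicate 3. It was 1.62 without KO replicate 3.

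Mfap2 encodes MAGP-1, a small glycoprotein bound along fibrillin. Its signals were 120.6, 109.8 and 55.9 in KO replicates 1, 2 and 3, and 81.3, 79.9 and 70.8 in Het replicates 1, 2 and 3. The Het arrays lay between the higher KO arrays and KO replicate 3. The log2 difference was 0.20 (SE 0.47), and became 0.03, 0.09 and 0.49 when KO replicates 1, 2 and 3 were left out in turn. With quantile normalization it was 0.097.

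Mfap5 encodes MAGP-2, its relative. Its signals were 183.3, 187.8 and 100.6 in KO replicates 1, 2 and 3, and 93.8, 124.2 and 127.2 in Het replicates 1, 2 and 3. KO replicates 1 and 2 were again above the Het arrays, and KO replicate 3 was among them. The log2 difference was 0.37 (SE 0.42), and 0.63 without KO replicate 3. Leaving out KO replicate 1, KO replicate 2 or Het replicate 1 gave 0.24, 0.23 and 0.25. A dimmer Mfap5 probe set was at 0.05 (SE 0.42), and the mean of both at 0.21.

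Emilin1 encodes a glycoprotein at the interface of elastin and microfibrils. It had signals of 107.5, 127.4 and 61.4 in KO replicates 1, 2 and 3, and of 109.9, 43.6 and 96.7 in Het replicates 1, 2 and 3. Each group held 1 array well below the other 2, and the groups overlapped. The log2 difference of 0.23 (SE 0.45) turned to -0.10 without Het replicate 2, and leaving out KO replicates 2 and 3 in turn gave 0.05 and 0.49. It was 0.13 with quantile normalization, 0.15 with a pseudocount of 64 and 0.44 with the mean of both probe sets. The second Emilin1 probe set had a signal of 98.6 in KO replicate 2 and between 8.25 and 11.4 on the other 5 arrays.

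Ltbp1 encodes a protein that holds latent TGF-beta on the microfibril. Its signals were 377.4, 383.0 and 206.0 in KO replicates 1, 2 and 3, and 293.5, 467.5 and 302.9 in Het replicates 1, 2 and 3. The groups overlapped, with the highest array in Het and the lowest in KO. The log2 difference was -0.15 (SE 0.41), and it turned positive when KO replicate 3 (0.13) or Het replicate 2 (0.06) was left out. With Eln, Ltbp1 was the other member whose mean log2 value was lower in KO.

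KO replicate 3 was the lowest of the 6 arrays for 5 of the 9 members, against 20.7% of all probe sets kept, and KO replicate 1 was the highest for 4 of 9, against 20.9%. Averaged over the 8 members other than Eln, the log2 level relative to the mean of the 6 arrays was 0.70, 0.47 and -0.51 in KO replicates 1, 2 and 3, and -0.09, -0.28 and -0.29 in Het replicates 1, 2 and 3. The lists of alveolar, endothelial, fibroblast and smooth muscle markers had the same order among the KO arrays. They lay at 1.52, 0.40 and -1.15 for alveolar epithelium, 0.70, 0.37 and -0.55 for endothelium, 0.57, 0.30 and -0.23 for fibroblasts and 0.64, 0.05 and -0.32 for smooth muscle in KO replicates 1, 2 and 3. The mesothelial list did not have this order, at 0.13, 0.21 and -0.22. The mean of the list of epithelial tumour cells differed little, at 0.09, -0.06 and -0.04. Within it, Krt18 was at 0.50, 0.09 and -0.27, in the order of the host cell lists. Krt19 was at -0.46, -0.42 and 0.24, in the reverse order. The part of these cells in the levels of the members was not tested, and in whole metastases fewer cells of a type and less RNA per cell cannot be told apart.

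Among the KO arrays, Eln was highest in replicate 2 and lowest in replicate 3. It was lower in KO replicate 1 than in any Het array. All 4 of these host cell lists were highest in KO replicate 1, and their relation to the level of Eln was not tested. The 10 smooth muscle genes had summed signals from 1846 to 4253 in KO and from 2027 to 2432 in Het, with 9 of 10 higher in KO and a median log2 difference of 0.30, although only 5 of the 10 passed the filter on low values. The 10 fibroblast genes had summed signals from 7182 to 10280 in KO and from 6107 to 6555 in Het, with 9 of 10 higher in KO and a median of 0.47, and 8 of the 10 passed the filter. The groups stood apart, with no overlap, for 5 of these 10, which were Col1a1, Col1a2, Col3a1, Dcn and Lum, all higher in KO. Over all probe sets kept, 7.82% were higher in KO without overlap, and Lum did not pass the filter. The second probe sets of Col1a1 and Col3a1 overlapped, at 0.23 and 0.48, while that of Col1a2 did not, at 0.68. Endothelial genes, 10 of 10 measured, had summed signals from 1730 to 4246 in KO and from 1949 to 3317 in Het, with 9 of 10 higher in KO and a median of 0.30. Alveolar genes were higher in KO for 8 of 9, with a median of 0.42, so this direction was not particular to smooth muscle and fibroblasts. The list of epithelial tumour cells had 4 of 5 higher in KO, with a median of 0.05. Mesothelial genes, of which 3 of 5 were measured, were dim, with summed signals from 144.9 to 246 in KO and from 120.9 to 282.0 in Het. No marker of these lists was listed at 0.

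**Figure D2:**
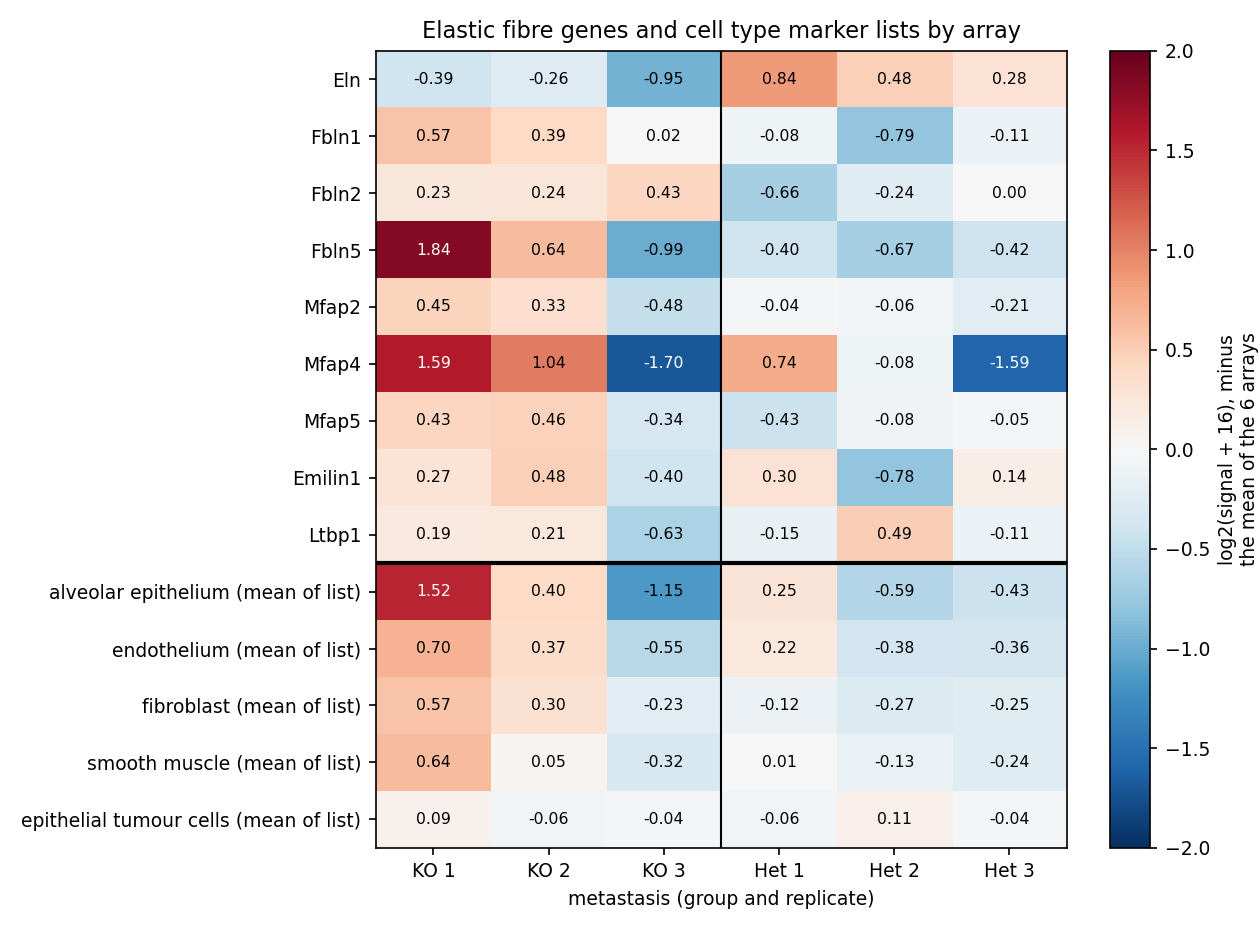
Log2(signal + 16) minus the mean of the 6 arrays (colour and printed value) for the 9 measured members and for the mean of 5 marker lists, by metastasis. Fbln5 and Mfap4 reach 1.84 and 1.59 in KO replicate 1, where the alveolar list is at 1.52, while Eln is at -0.39 there.

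Without KO replicate 3, which had the lowest level of the alveolar, endothelial and smooth muscle lists, the groups had no overlap for 7 of 9 members. Of these, 6 were higher in KO (Fbln1, Fbln2, Fbln5, Mfap2, Mfap4 and Mfap5) and Eln alone was lower. With that array left out, 36.5% of all probe sets did not overlap, 17.7% higher and 18.8% lower in KO. Emilin1 and Ltbp1 still overlapped. Leaving out any other array gave 3 of 9 members without overlap. The share of all probe sets without overlap was then 26.9% when KO replicate 1 was left out and 23.5% for KO replicate 2, and 26.8%, 27.6% and 23.1% for Het replicates 1, 2 and 3. Of all 13 member probe sets, 4 had no overlap with every array in, beside 14.4% of 22626 probe sets with no filter. These 4 include both probe sets of Eln, the gene on which the set was selected.

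The other genes of elastic fibre assembly were taken from lists, and none of them passed the test in either direction. Of 12 relatives of the fibrillins, fibulins, LTBPs and EMILINs, 7 were measured, with 3 higher and 4 lower in KO and a median log2 difference of -0.19. Ltbp3, which carries latent TGF-beta, had 2042 ± 245 in KO and 2573 ± 499 in Het (SD, n = 3 arrays each). KO minus Het was -0.32 on the log2 scale (SE 0.22), and a second probe set of Ltbp3 was at -0.56 (SE 0.24) with all KO arrays below all Het arrays. Without Het replicate 3, the difference of the main one was -0.19. Ltbp2, which binds microfibrils without carrying TGF-beta, differed by -0.29 (SE 0.46), and by 0.035 without KO replicate 3. Efemp1, the gene of fibulin-3, differed by 0.16 (SE 0.86), and was highest in KO replicate 1 at 480.1 and lowest in KO replicate 3 at 87.8. The sign of Efemp1 turned when KO replicate 1 (-0.31), KO replicate 2 (-0.03) or Het replicate 2 (-0.10) was left out.

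Of 5 lysyl oxidase genes, whose products crosslink elastin and collagen, 4 were measured, 2 higher and 2 lower in KO, with a median of -0.06. Lox had signals of 358.4, 440.5 and 383.0 in KO replicates 1, 2 and 3, and of 321.5, 439.3 and 372.1 in Het replicates 1, 2 and 3. These values lay within one another, and the log2 difference was 0.06 (SE 0.25). Dimmer probe sets of Lox were at -0.03 and -0.29, and the main one turned negative when KO replicate 2 (-0.02) or Het replicate 1 (-0.04) was left out. Loxl1, the family member known to be needed for elastin renewal, differed by -0.28 (SE 0.57), with -0.62 when KO replicate 2 was left out and a change of sign, to 0.12, when KO replicate 3 was left out. Loxl3 differed by 0.18 (SE 0.40), and Loxl4, which did not pass the filter, by -0.19 (SE 0.38). Leaving out KO replicates 1, 2 and 3 in turn gave 0.07, 0.11 and 0.38 for Loxl3, and quantile normalization gave 0.077.

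TGF-beta induces elastin and is itself stored on microfibrils. Of 10 listed ligands, receptors and targets, 9 were measured, 3 higher and 6 lower in KO, with a median of -0.11. Tgfb3 had signals of 847.1, 1348 and 658.5 in KO replicates 1, 2 and 3, against 1725, 1906 and 2284 in Het replicates 1, 2 and 3. As with Eln, all KO arrays were below all Het arrays, as for 8.91% of all probe sets kept, and the log2 difference was -1.09 (SE 0.42). Smad7, the other gene of this list with no overlap, was higher in KO, at 0.55 (SE 0.30), beside 7.82% of all probe sets kept. It was added after its values were seen. The receptor gene Tgfbr2 differed by -0.11 (SE 0.42) and Skil, a target that dampens the pathway, by -0.005 (SE 0.23). Tgfbr2 turned to 0.19 without KO replicate 3. Other probe sets were at 0.33 and -0.006 for Tgfbr2 and at 0.37 for Skil, the latter with all KO arrays above all Het arrays. The other ligands were added after their values were seen. Tgfb2 had signals of 275.0, 736.8 and 160.0 in KO replicates 1, 2 and 3, and of 644.9, 922.2 and 747.8 in Het replicates 1, 2 and 3, with KO replicate 2 inside the Het range and a difference of -1.21 (SE 0.78). It was -0.74 without KO replicate 3, and its dimmer probe sets were at -0.71 and -1.13, the latter with no overlap. Tgfb1 went the other way, with 430.1, 242.9 and 144.7 in KO replicates 1, 2 and 3, 167.0, 92.0 and 130.9 in Het replicates 1, 2 and 3, and a difference of 0.89 (SE 0.57). This was 0.52 without KO replicate 1.

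Of the 10 elastases, all measured, 6 were higher and 4 lower in KO, with a median of 0.05. Of the 7 that passed the filter on low values, 3 were higher and 4 lower. Prtn3, proteinase 3, and the cathepsins Ctsl and Ctss were the brightest, with differences of -0.41 (SE 0.40), -0.30 (SE 0.40) and -0.13 (SE 0.46). For Prtn3, leaving out KO replicate 1, KO replicate 3 or Het replicate 2 gave -0.65, -0.15 and -0.26. Ctsl was at 0.006 without KO replicate 1, and Ctss at 0.09 without KO replicate 3. Mmp14 and Mmp12 were added after their values were seen. Mmp14 was the elastase of the list with no overlap, higher in KO by 0.44 (SE 0.32), beside 7.82% of all probe sets kept. On its second probe set the difference was 0.63 (SE 0.38), also with no overlap. Mmp12 is the macrophage elastase. It had signals of 524.2, 1153 and 313.3 in KO replicates 1, 2 and 3, and of 789.3, 1276 and 1221 in Het replicates 1, 2 and 3. KO replicate 2 lay inside the Het range, and the difference of -0.88 (SE 0.68) became -1.37 and -0.45 when KO replicates 2 and 3 were left out in turn. Of the 5 inhibitors, 4 were measured and all 4 were higher in KO, with a median of 0.29. Timp3, which is held in the matrix, differed by 0.53 (SE 0.45), Slpi, an inhibitor of neutrophil elastase, by 0.30 (SE 0.67), and Timp2 by 0.13 (SE 0.66). Timp2 was at -0.30 without KO replicate 1, and of its 5 other probe sets 1 was lower in KO, at -0.17, and the mean of all 6 was at 0.30. For Timp3, leaving out KO replicate 1, KO replicate 3 or Het replicate 3 gave 0.26, 0.81 and 0.19. Dimmer probe sets of Timp3 were at 0.45, with overlap, and at 0.89 and 0.73, with all KO arrays above all Het arrays, beside 7.82% of all probe sets kept. Slpi was highest in KO replicate 3, at 3673, and without that array the difference turned to -0.23.

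**Figure D3:**
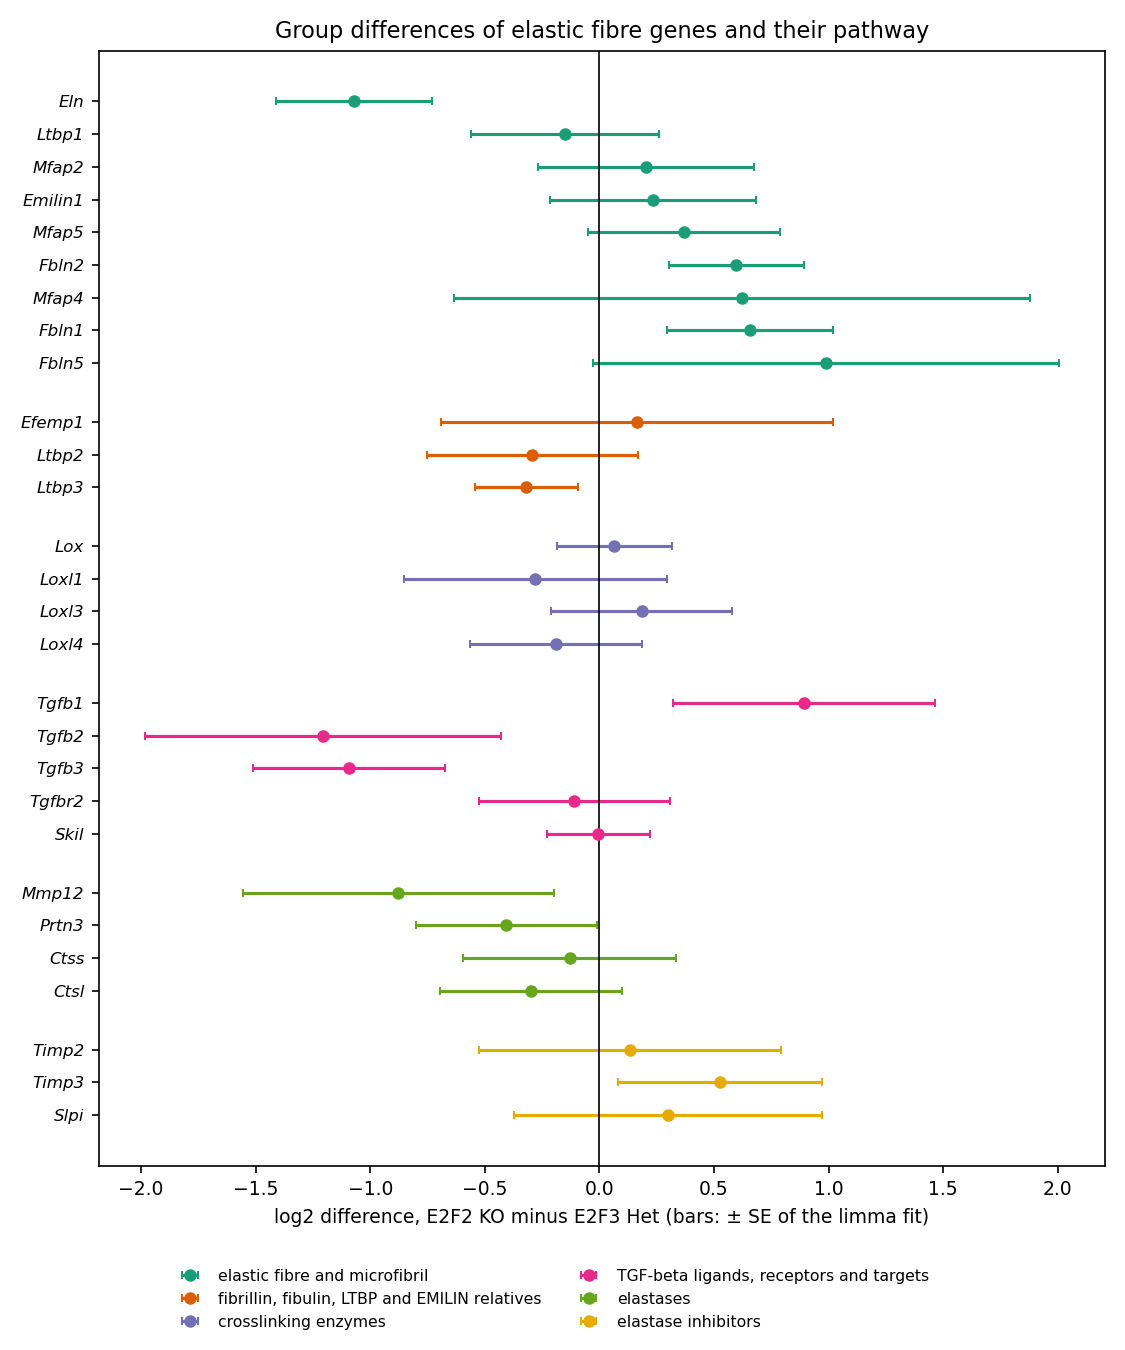
Log2 difference of KO minus Het (horizontal axis) with the SE of the limma fit for the 9 measured members and for named genes of 5 pathway lists. Smad7 and Mmp14 are not shown. Eln at -1.07 and Tgfb3 at -1.09 lie well below 0, Fbln1, Fbln2 and Fbln5 lie between 0.60 and 0.99, Efemp1 is at 0.16 and Lox at 0.06.

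The genes with the profile closest to Eln over the 6 arrays were found by the root mean square distance between log2 profiles, each centred on its mean. Among 7956 genes, the closest were Bcl6, a transcriptional repressor, at 0.18, Pnrc2, a nuclear receptor coactivator, at 0.22, Gpr137b, a lysosomal membrane protein, at 0.23, Chdh, choline dehydrogenase, at 0.24, and Irx3, an Iroquois homeobox factor, at 0.25. Bcl6 had signals of 235.0, 238.8 and 136.1 in KO replicates 1, 2 and 3, and of 390.6, 327.0 and 317.3 in Het replicates 1, 2 and 3. Like Eln, it was lowest in KO replicate 3 and highest in Het replicate 1. The distance of the other members from Eln was larger, from 0.55 for Ltbp1 to 1.29 for Mfap4. Ltbp1 ranked 2007 in closeness, Mfap2 5196 and Fbln5 7822 of 7956, so no other member was among the genes whose profile was most like that of Eln. The arrays share their scaling and, for Het, perhaps a mouse, so these distances are a description.

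**Figure D4:**
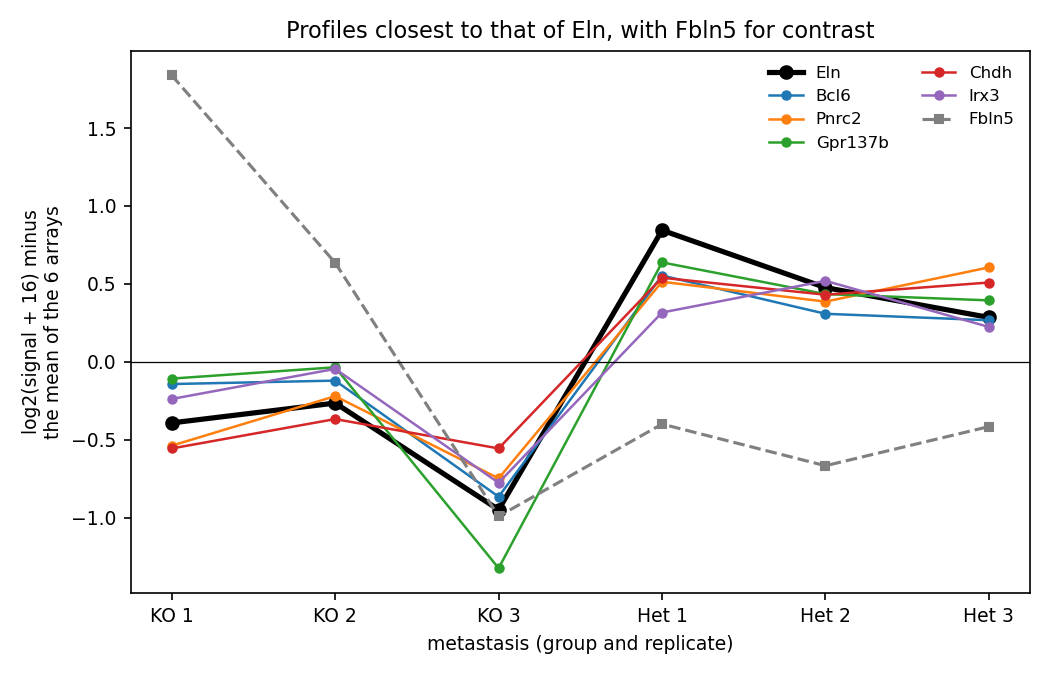
Log2(signal + 16) minus the mean of the 6 arrays (vertical axis) for Eln, the 5 genes with the closest profiles, and Fbln5, by metastasis; lines only join the points of a gene, and replicates have no order. Eln and these 5 genes are below 0 in all KO arrays and above 0 in all Het arrays, whereas Fbln5 runs from 1.84 to -0.99 within KO. The 5 genes were picked for closeness to Eln, so their split between the groups is largely set by that choice.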

How the data were processed

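The authors deposited linear microarray intensities as 1 table of 22690 probe sets and 6 arrays. MAS5 and Affymetrix Expression Console are named, without versions, in the submitters' processing notes, and the equal trimmed means of the columns, 500.2, show that each array had been scaled. Detection calls were not used here, no depth applies to array signals, and the number of arrays limits the precision.

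Symbols came from the platform annotation, and only probe sets with 1 symbol were named. Signals were transformed to log2(signal + 16), and 64 control probe sets and the 40% with the lowest mean log2 value were left out. All 13575 others were fitted with limma 3.58.1 in R 4.3.3 (lmFit, eBayes with a trend), with 3 KO samples against the mean of the 3 Het arrays, and adjusted p-values (Benjamini-Hochberg) were called below 0.05. The fit takes the spread of the KO samples as that of the single Het sample too. The labels do not say that samples came from separate animals, so the SE measures only the spread between these samples. Genes that did not pass the filter are given from the fit with no filter.

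The members and lists were chosen with earlier results of these data known. Named genes are all members, the 3 brightest measured genes of each pathway list, all measured lysyl oxidases and the 5 genes closest to Eln. Tgfb1, Tgfb2, Mmp12, Smad7 and Mmp14 were added after their values were seen. Smad7 and Mmp14 are not among the values given under the alternatives. The alternatives were each array as a sample, with or without the number in the title as a random block, the pseudocount (1 or 64), the filter (none or 60%), quantile normalization, the mean of all probe sets of a gene, and leaving out each array. Replicate numbers follow the order of the records, so Het replicates 1, 2 and 3 are the metastases whose titles end in LM2, LM1 and LM3.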

Additional observations from a re-analysis of the deposited data

How the results depend on the processing

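No probe set was called under any alternative run. The Eln difference kept its sign in all of them, from -0.99 with a pseudocount of 64 to -1.18 with the mean of its probe sets, and from -1.21 to -0.86 when each array was left out in turn. The number of members higher in KO, with alternatives chosen after seeing the data, stayed between 6 and 8 of 9 when an array was left out. When an array was left out, the number of members without overlap ran from 3 to 7 of 9, beside 23.1% to 36.5% of all probe sets. With no filter it was 4 of 13 member probe sets, beside 14.4%. These counts include Eln, on which the set was selected. Of 219 values under the other alternatives, 216 kept their sign and their side of the threshold and 3 turned, all with the mean of all probe sets of a gene: Lox to -0.084, Skil to 0.19 and Tgfbr2 to 0.071. The cause was not tested. Taking each array as a sample, the random block and the change of filter cannot alter a log2 difference, only its SE. Under those settings the sign was therefore fixed in advance, and no value passed the threshold under any setting. Leaving out 1 array turned the sign of Mfap4 (-0.021 to 1.62), Emilin1 (-0.10 to 0.49), Ltbp1 (-0.30 to 0.13), Ltbp2 (-0.49 to 0.035), Efemp1 (-0.31 to 0.82), Lox (-0.041 to 0.17), Loxl1 (-0.62 to 0.12), Skil (-0.054 to 0.078), Tgfbr2 (-0.29 to 0.19), Ctsl (-0.46 to 0.0064), Ctss (-0.48 to 0.091), Slpi (-0.23 to 0.60) and Timp2 (-0.30 to 0.59). No paired analysis was possible because the labels give the groups no shared replicate numbers. The signal over background of dim probe sets is not known here.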
